A study of Mus musculus with 9 samples.

Results

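Cytosolic ribosomal protein genes encode the protein part of the ribosome that translates nuclear messages. The 76 genes described here were taken by symbol from 53458 genes: protein-coding genes named Rpl or Rps with a number, Rplp0, Rplp1, Rplp2 and Rpsa, of which 46 belong to the large and 30 to the small subunit. Pseudogenes, the S6 kinases and paralogs such as Rps27l were left out by the symbol rule, as were Rps3a1 and Fau, which also encode ribosomal proteins. The RNA came from cDC1, a class of dendritic cell that specialises in showing captured antigen to cytotoxic T cells, taken from peri-pancreatic lymph nodes of mice. KPC, a genetic model of pancreatic cancer, is named in the series title. There were 9 libraries, 3 for each neoplasia stage in the labels: Healthy, PanIN (precursor lesions of the pancreas, pancreatic intraepithelial neoplasia) and Tumor. The labels used here give no genotype, age, sort gate or pooling for any group. They also leave unsaid which libraries are separate animals, so p-values measure the spread between these libraries only, which may be technical.

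Ribosomal proteins are needed in nearly equal amounts, since each ribosome carries about one copy of most of them, and the messages are among the most abundant of a cell. Their messages begin with a C and a run of pyrimidines, the terminal oligopyrimidine tract, through which the mTORC1 kinase and the RNA-binding protein LARP1 set how much of each is translated. In dendritic cells that receive an activating signal, translation is first raised and later restrained. The genes have also left many processed pseudogenes in the mouse genome, copies of the spliced message whose reads are hard to tell from those of the gene itself.

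Several of these copies are exact over the whole coding sequence, and they bear on every value below, so some are shown. The first 90 coding bases of 3 genes, which were letter for letter those of a second locus, are given from GENCODE M21 (GRCm38), with the start codon in capitals. Over the full coding length of 252 bases for Rps27, 642 for Rpl10 and 396 for Rps12, each gene and its partner differed at 0 positions.
Rps27 (chr3:90212522-90213651, minus strand) and Rps27rt (chr9:114982366-114982739, minus strand): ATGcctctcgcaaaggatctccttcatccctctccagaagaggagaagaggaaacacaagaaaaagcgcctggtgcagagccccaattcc
Rpl10 (chrX:74270812-74273135, plus strand) and Rpl10-ps3 (chr9:50344201-50344968, minus strand): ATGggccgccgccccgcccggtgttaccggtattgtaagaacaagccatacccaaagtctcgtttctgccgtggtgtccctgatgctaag
Rps12 (chr10:23785183-23787275, minus strand) and Rps12-ps3 (chr19:59322290-59322783, plus strand): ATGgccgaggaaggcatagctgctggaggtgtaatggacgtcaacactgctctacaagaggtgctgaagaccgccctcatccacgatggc
A look-alike locus was defined as a pseudogene or a protein-coding locus outside the 76 genes of which at least 50% of the 31-base words occur in the coding transcripts of a ribosomal protein gene. There were 290 such loci, 280 of them annotated as pseudogenes and 10 as protein-coding, and 68 of the 76 genes had at least one.

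The start regions were searched for the pyrimidine tract. RefSeq start regions (GRCm38.p6, 250 bases before to 50 after the annotated start) were found for 56 of the 76 genes. A C followed by 4 pyrimidines stood exactly at an annotated start in 13 of the 56 genes (23.2%), against 3.0% of 26969 other genes, and began within 10 bases of a start in 60.7%, against 34.3%. The 5 windows below are chosen from these 13 genes to show the tract, which the annotated starts of the other genes of the 56 did not show. They run from 25 bases before the start, with the first 5 transcribed bases in capitals.
Rps6, phosphorylated by the S6 kinases (chr4:86857353-86857392, minus strand): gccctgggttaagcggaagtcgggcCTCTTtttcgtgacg
Rpl28 (chr7:4792940-4792979, plus strand): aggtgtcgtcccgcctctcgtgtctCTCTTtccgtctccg
Rplp2, of the ribosomal stalk (chr7:141447626-141447665, plus strand): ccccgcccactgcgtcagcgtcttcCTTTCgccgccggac
Rpl38 (chr11:114668555-114668594, plus strand): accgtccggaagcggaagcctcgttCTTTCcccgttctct
Rps27 (chr3:90213634-90213673, minus strand): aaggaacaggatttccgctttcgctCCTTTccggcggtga
Of the words searched on both strands of these regions, CCGGAAG, the core of ETS factor sites, was in 41.1% of the 56 genes and in 9.9% of the others. TATAAA was in 10.7% against 15.7%, CACGTG in 10.7% against 8.1%, and AAGATGGC in 8.9% against 3.2%. The pyrimidine words CTTTCC and CTCTTT, which may overlap each other and the tract, were in 51.8% and 48.2% against 29.3% and 25.6%, and TTTCCT was in 35.7% against 32.1%. These matches describe letters only and do not show binding.

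Libraries held from 32150281 to 68934430 estimated counts. Healthy 2 and Healthy 3 stood apart. Healthy 2 held the least of the mature dendritic cell genes. Ccr7, the receptor that brings dendritic cells to lymph nodes, had 57.2 CPM there, against 419 to 2600 in the other 8 libraries. CPM are counts scaled by the library total times a normalization factor (TMM), 0.83 for Healthy 2 and 1.19 for Healthy 3. Healthy 3 was richest in non-coding RNA, with 1.78% of its counts at Rn7s1, a 7SL RNA gene, and 2.77% at the ribosomal RNA of mitochondria. The cDC1 genes Xcr1 (249 to 1080 CPM) and Irf8 (1030 to 3330 CPM) were present in all 9 libraries, both highest in Healthy 2.

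Together the 76 genes took 5.77%, 7.57% and 5.20% of the gene counts of Healthy 1, 2 and 3. The PanIN libraries gave them 5.52%, 4.68% and 4.85%, and the Tumor libraries 6.73%, 6.48% and 5.23%. The Healthy mean was 6.18 ± 1.24%, the PanIN mean 5.02 ± 0.447% and the Tumor mean 6.15 ± 0.807% (SD over 3 libraries each). Healthy 2 held the highest share of all 9 libraries and PanIN 2 the lowest, and the Healthy libraries spanned the values of both other groups apart from PanIN 2 and PanIN 3, which lay below every other library. Tumor 3 lay below PanIN 1. The difference was 1.13 percentage points for Tumor minus PanIN, -1.16 for PanIN minus Healthy (-0.469 without Healthy 2) and -0.0326 for Tumor minus Healthy (0.661 without Healthy 2). As a share of TPM, a measure that divides counts by transcript length, the genes took 10.2%, 15.2% and 7.89% of the Healthy libraries, 10.9%, 9.94% and 11.2% of the PanIN libraries and 12.3%, 12.1% and 11% of the Tumor libraries. Healthy 2 and Healthy 3 then held the highest and the lowest share. Fewer cells rich in these messages and less of the message per cell cannot be told apart in bulk libraries.

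**Figure D1:**
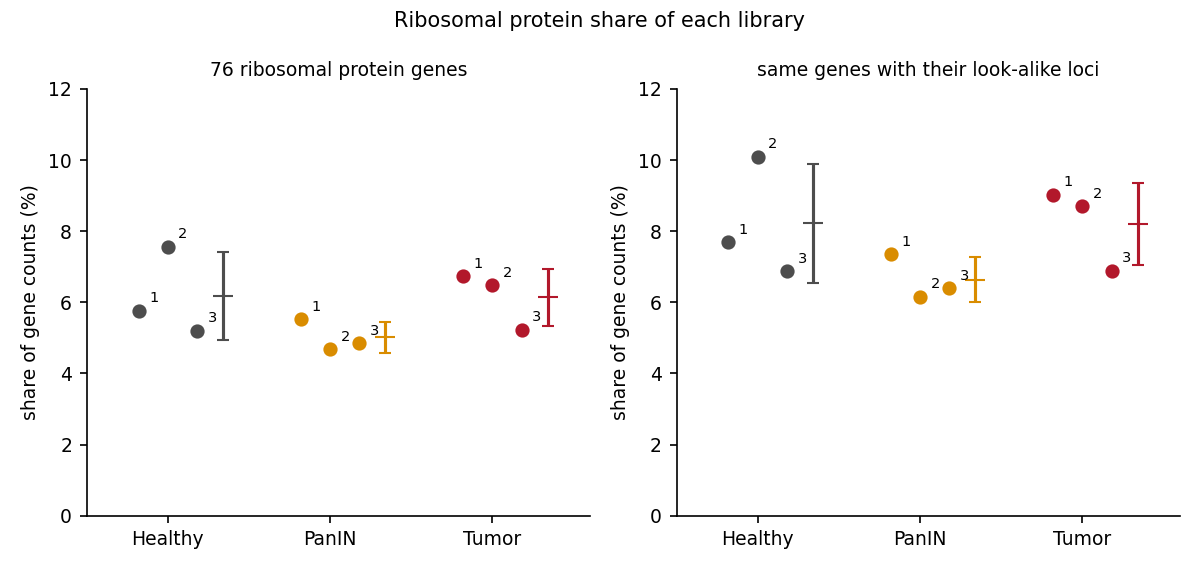
Share of gene counts (%) at the 76 ribosomal protein genes (left) and at the same genes with their look-alike loci (right), with 1 point per library numbered within its group and the mean and SD of each group of 3 beside the points. Healthy 2 is the highest library in both panels, at 7.57% and 10.1%, and PanIN 2 the lowest, at 4.68% and 6.16%.

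The look-alike loci added a similar proportion in every library: they held between 24.1% and 25.6% of the counts of genes and look-alikes together in each of the 9 libraries. With them the Healthy libraries reached 7.70%, 10.1% and 6.88%, the PanIN libraries 7.35%, 6.16% and 6.39%, and the Tumor libraries 9.03%, 8.71% and 6.89%, so the order of the libraries was nearly that of the genes alone.

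Between genes the deposited division of reads was very uneven. The median gene had 4.9% of the counts of its family, meaning the gene and its look-alikes, at the look-alikes; 31 genes had under 1% and 22 had over 50%. For 4 genes the look-alikes held over 90%. These were Rps27, a zinc-binding protein of the small subunit, with 99.0% at look-alikes, Rpl5, which carries the smallest ribosomal RNA into the ribosome, with 98%, Rpl12, of the stalk base, with 97.5%, and Rps12 with 96.6%. The locus with the most counts was Rps27rt for Rps27, Gm15500 for Rpl5 and Gm10275 for Rpl12. These genes were also the lowest of the 76 in TPM. Rpl12 averaged 20.3 ± 7.79 TPM over the 9 libraries (SD), Rpl5 22.8 ± 8.24, Rps27 27.7 ± 13.6 and Rps12 62.9 ± 19.1, and the next gene was Rpl36a with 164 ± 27.5. The other 72 genes exceeded 100 TPM, and the median over all 76 was 1090 TPM.

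At the top stood Rpl13a, a large-subunit protein also known in human myeloid cells as part of a complex that silences inflammatory messages, with 13600 ± 2590 TPM and a range from 9970 to 19500 TPM. Rps15a, of the small subunit, followed with 6630 ± 1510 TPM, and Rpl18, of the large subunit, was also among the 5 highest with 3130 ± 546 TPM. These 3 genes did not overlap within their SD. With look-alikes summed the order changed: Rps29 came first with 29300 TPM and Rps28 next with 16500 TPM, Rpl13a with 13600 TPM was at rank 3, Rps15a at rank 6 and Rpl18 at rank 18. TPM depends on the assumed length of each transcript, and short loci take high values, so the order is that of the deposited values and not of molecules.

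The genes moved together across libraries. Over the 9 libraries the median correlation between pairs of the 76 genes in log2 CPM was 0.94, and 71.8% of the 2850 pairs exceeded 0.9. One common value per library accounted for 78.1% of the variance of the 76 genes around their means. With look-alikes summed the median was 0.96 and the common value took 94.6% of the variance. For 78 mitochondrial ribosomal protein genes, the Mrpl and Mrps genes whose products translate the mitochondrial genome, the median was 0.73 and the common value took 59.5%. Those 78 genes together had 1680 to 2880 CPM per library, where Rplp0 alone had 2000 to 4360 CPM. Low counts vary more and the sets were not matched in counts, so these values are not like for like. No value over all genes is given. Points in these correlations share libraries and depth, and the genes share reads with their look-alikes, so no p was computed. The genes that varied most were Rpl10, with an SD of 0.73 in log2 CPM over the 9 libraries, Rpl12 with 0.59, Rps27 with 0.56, Rps12 with 0.54 and Rpl41, the shortest ribosomal protein, with 0.48. The median SD was 0.39.

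**Figure D2:**
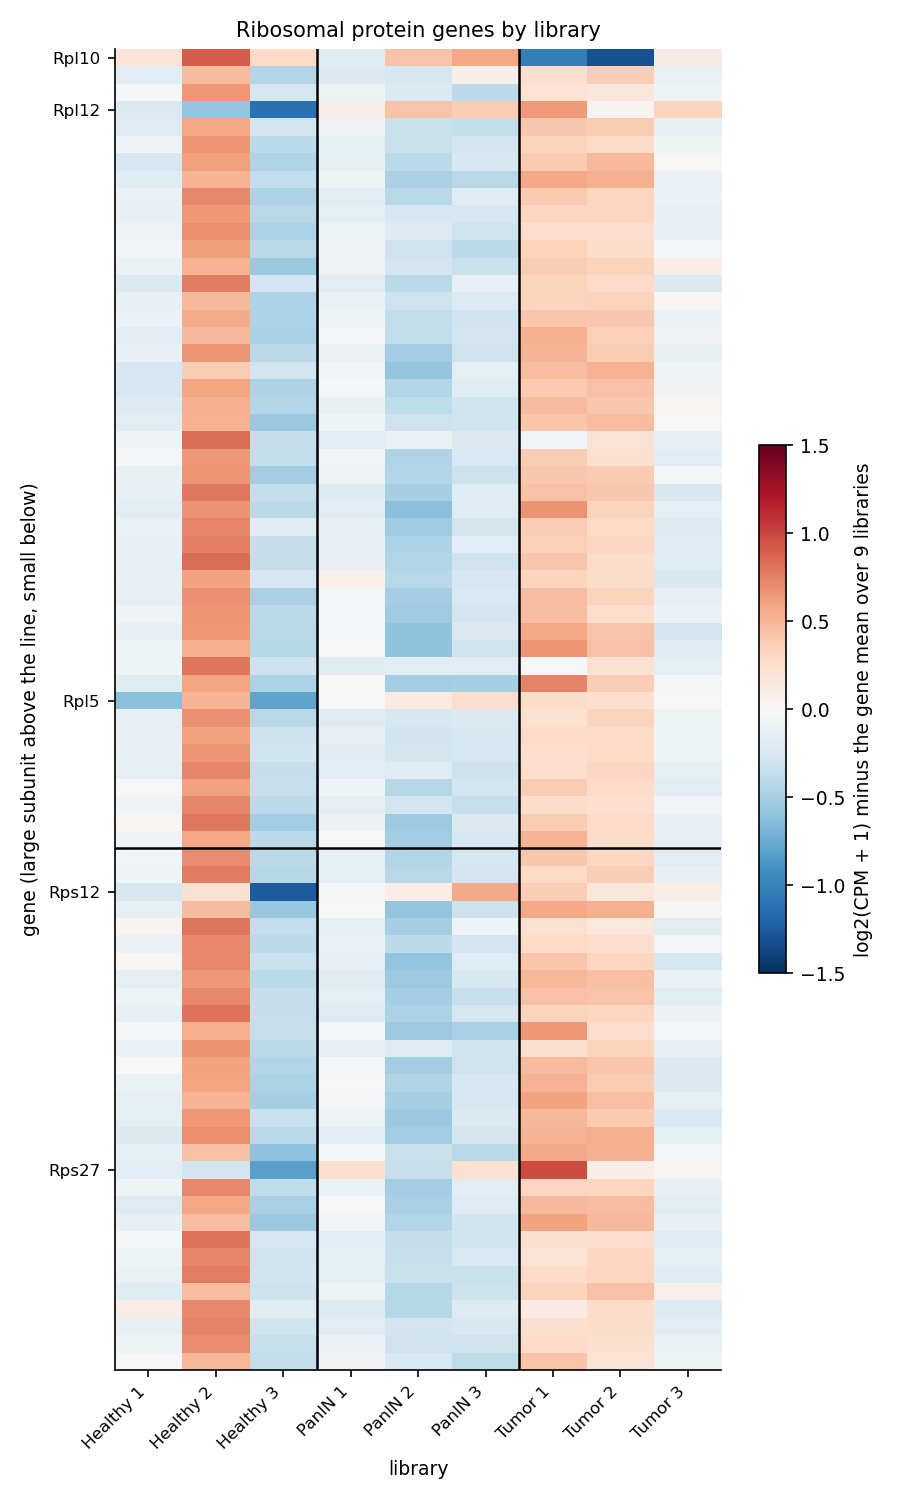
Each row is a ribosomal protein gene (5 are named) and each column a library, and the colour is log2(CPM + 1) minus the gene's mean over 9 libraries, from blue (below) to red (above). Healthy 2, Tumor 1 and Tumor 2 are red in most rows and Healthy 3 and PanIN 2 are blue, while Rpl10, Rpl12, Rpl5, Rps12 and Rps27 depart from the common pattern.

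PanIN was first set against Healthy, to ask how these messages differed where the node drained precursor lesions. Of the 76 genes, 72 had a lower value in PanIN (57.5% of all genes did), with a median log2 fold change of -0.38 and quartiles of -0.42 and -0.29, where the median over all 24133 genes tested was -0.10. By the quasi-likelihood test of edgeR, adjusted after Benjamini and Hochberg, no member passed the threshold (0.0% of all genes passed), and the smallest adjusted p was 0.457. At an unadjusted p under 0.05 there was 1 member, against 10.5% of all genes. DESeq2 called 0 members and limma-voom with sample weights 3. Those weights were 4.32 for Healthy 1, 0.172 for Healthy 2 and 0.269 for Healthy 3. The Healthy values of the weighted fit therefore rest mostly on Healthy 1, here and in Tumor against Healthy. For DESeq2 and the weighted fit the share of all genes called is not given, so their calls have no background. Large-subunit genes had a median of -0.36 and small-subunit genes -0.41. The median standard error of a member was 0.31, so a shift of this size lies near the error of a single gene. The value rests on Healthy 2: without it the median was -0.01, with 36 genes higher and 40 lower in PanIN. Without Healthy 3 it was -0.55, with 28 members lower at an unadjusted p under 0.05 by edgeR. The share of all genes at that p without Healthy 3 is not given, so these 28 have no background. On log2(TPM + 1) the median was 0.02, against 0.11 over all genes, and 43 members had a higher value.

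Rplp0, Rplp1 and Rplp2 form the stalk that recruits translation factors. Rplp0 had 2380, 2180 and 2070 CPM in PanIN, against 2530, 4360 and 2000 CPM in Healthy, a log2 fold change of -0.43 ± 0.33 (SE) with an adjusted p of 0.714 by edgeR. PanIN lay close to Healthy 1 and Healthy 3, and Healthy 2 stood alone above them. Rpsa, of the small subunit and also known as a laminin receptor precursor, had 2640, 2350 and 2110 CPM in PanIN, against 2740, 3880 and 2120 CPM in Healthy. Rps7, a small-subunit protein, was the member with the smallest p among the lower ones, with 462, 393 and 460 CPM in PanIN, against 572, 875 and 468 CPM in Healthy. Its log2 fold change was -0.54 ± 0.28 (unadjusted p 0.0759, adjusted p 0.524 by edgeR), and it was called by limma-voom with sample weights, at -0.47 with an adjusted p of 0.0403. All 3 PanIN values of Rps7 lay below all 3 Healthy values, which 1 member did, against 4.81% of all genes.

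The 4 genes with a higher value in PanIN were Rpl12, Rps12, Rps27 and Rpl5, the 4 whose counts lie almost wholly at look-alikes. Rpl12 had 26.0, 33.0 and 31.7 CPM in PanIN, against 20.7, 15.8 and 10.6 CPM in Healthy, with no overlap, the only member so placed, against 7.4% of all genes. Its log2 fold change was 0.94 ± 0.28 (unadjusted p 0.00538, adjusted p 0.457 by edgeR). Rpl12 with its look-alikes had 853, 702 and 789 CPM in PanIN, against 898, 1560 and 716 CPM in Healthy, and the log2 fold change turned to -0.43 ± 0.32. Rpl5 had 27.9, 30.4 and 33.4 CPM in PanIN, against 17.6, 40.1 and 15.6 CPM in Healthy, with Healthy 2 above all PanIN libraries. It was called by limma-voom with sample weights at 0.77 (adjusted p 0.0144), and with look-alikes its edgeR log2 fold change was -0.42. After the look-alikes were summed, all 76 families had a lower value in PanIN, between -0.52 and -0.23, with a median of -0.40, and none had an unadjusted p under 0.05 by edgeR. The sum over look-alikes was chosen after seeing the data.

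The comparison of Tumor with Healthy asked the same of nodes draining tumors, and it shares the Healthy libraries with the one before. Here the members were close to level: 59 had a higher and 17 a lower value in Tumor (43.5% of all genes had a higher one), with a median log2 fold change of 0.09, against -0.11 over all genes. No member passed by edgeR (0.0249% of all genes passed), the smallest adjusted p was 0.168, and 3 members had an unadjusted p under 0.05, against 17.8% of all genes. DESeq2 called 1 member, Rpl12, and limma-voom with sample weights 1, Rpl5. Leaving out Healthy 2 moved the median to 0.46, with 75 of 76 higher in Tumor, and Rpl5 was called at 0.93 (adjusted p 0.0218 by edgeR). Of the higher members 27 had an unadjusted p under 0.05 by edgeR. The share of all genes at that p in this fit is not given, so these 27 have no background. Leaving out Healthy 3 moved it to -0.09, with 47 members lower, and leaving out Tumor 1 moved it to 0.00.

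Rpl12 had 38.2, 24.9 and 30.8 CPM in Tumor, against 20.7, 15.8 and 10.6 CPM in Healthy, a log2 fold change of 1.0 ± 0.28 (unadjusted p 0.00384, adjusted p 0.168 by edgeR), and all Tumor values lay above all Healthy values. DESeq2 gave 0.99 with an adjusted p of 0.0321. With look-alikes it was 0.08. Rps27 had 15.3, 7.82 and 7.43 CPM in Tumor, against 6.34, 5.80 and 3.68 CPM in Healthy, and 0.95 ± 0.39 (unadjusted p 0.0312, adjusted p 0.235 by edgeR), again without overlap. With look-alikes its log2 fold change was 0.28. Of the 76 genes 2 had all 3 Tumor values above Healthy, against 9.02% of all genes.

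Rpl10, which joins the large subunit late and lies near the peptidyl transferase centre, was the member that stood lowest in Tumor. It had 147, 122 and 330 CPM in Tumor, against 349, 567 and 368 CPM in Healthy, with a log2 fold change of -1.10 ± 0.38 (unadjusted p 0.0137, adjusted p 0.177 by edgeR). Tumor 1 and Tumor 2 were low, and Tumor 3 lay just under Healthy 1, so the groups did not overlap. It was the 1 member with all 3 Tumor values below Healthy, against 9.06% of all genes. The gap lay in coding transcripts. Rpl10-211 had 0 estimated counts in Tumor 1 and Tumor 2, against 4031 to 18674 in the other 7 libraries, and Rpl10-205 had 1098 and 612, against 2233 to 7571. The pseudogene Rpl10-ps1 had 276, 337 and 32.9 CPM in Tumor, against 151, 285 and 58.5 CPM in Healthy, and Rpl10-ps3, whose coding sequence is that of Rpl10, had 1490, 1600 and 1130 CPM in Tumor, against 967, 1540 and 714 CPM in Healthy. Rpl10 with its look-alikes had 1930, 2080 and 1500 CPM in Tumor, against 1470, 2420 and 1140 CPM in Healthy. The log2 fold change of the family was 0.13 ± 0.32, opposite in sign to that of the gene alone, and whether the reads came from the gene or the copies was not tested.

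**Figure D3:**
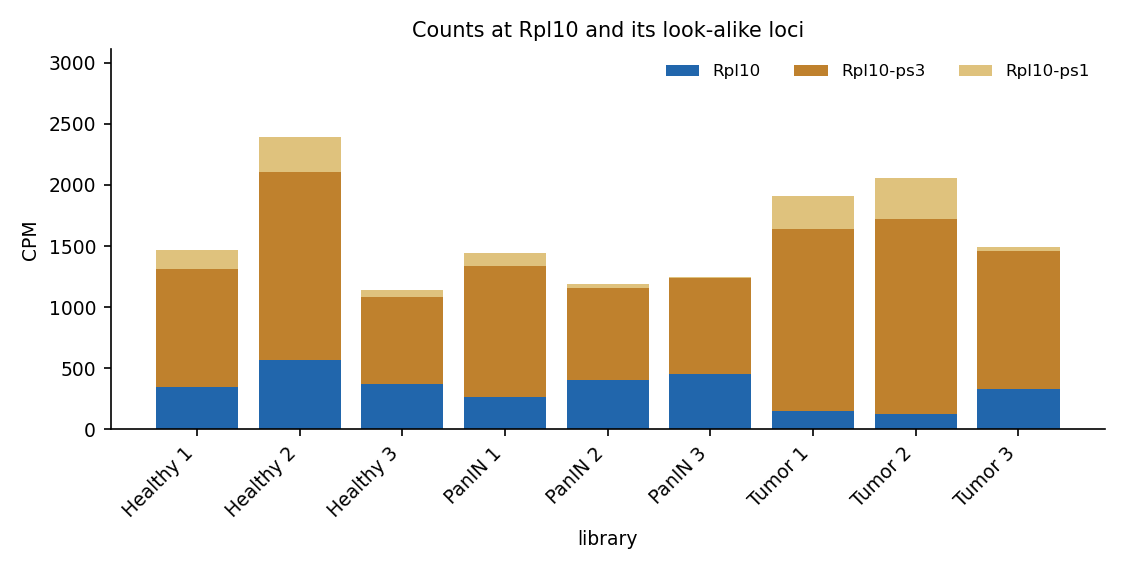
Stacked bars of CPM at Rpl10 and its look-alike loci Rpl10-ps3 and Rpl10-ps1 in each of the 9 libraries. The Rpl10 segment is smallest in Tumor 1 and Tumor 2, at 147 and 122 CPM, where the bars as a whole are among the tallest.

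Other members of known function showed the level picture. Rps6, the small-subunit protein phosphorylated downstream of mTORC1, had 727, 780 and 604 CPM in Tumor, against 505, 792 and 460 CPM in Healthy. Rplp0 had 3190, 3130 and 2560 CPM in Tumor, against 2530, 4360 and 2000 CPM in Healthy. Rpl11, which with Rpl5 binds the p53 ligase Mdm2 when ribosome assembly is disturbed, had 355, 343 and 291 CPM in Tumor, against 299, 480 and 254 CPM in Healthy. In each the Healthy libraries spanned the Tumor values or nearly so. Rpl3 and Rpl4, core proteins of the large subunit, had log2 fold changes of -0.21 ± 0.32 and -0.19 ± 0.32, and Rps14, whose loss underlies a human myelodysplastic syndrome, -0.16 ± 0.32. Rps13 and Rps26, small-subunit proteins, had 0.41 ± 0.30 and 0.42 ± 0.31.

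Tumor and PanIN were compared directly, and this contrast does not rest on the Healthy libraries for its means. Of the 76 genes, 74 had a higher value in Tumor (45.8% of all genes did), with a median log2 fold change of 0.47, against -0.05 over all genes. No member passed by edgeR (0.0124% of all genes passed), and the smallest adjusted p was 1.0. DESeq2 and limma-voom with sample weights called 0 members as well. At an unadjusted p under 0.05 there were 3 members higher and 1 lower, against 4.54% of all genes. In 28 members all 3 Tumor values lay above all 3 PanIN values, against 8.33% of all genes, and in 0 members all lay below, against 7.26%. Since the members move together across libraries, these 28 are not separate observations. Both subunits had a median of 0.47. Leaving out one library at a time gave medians from 0.37 without Tumor 1 to 0.60 without Tumor 3, and on log2(TPM + 1) the median was 0.15 with 65 members higher, against -0.16 over all genes. The Healthy libraries enter the estimate of spread: without Healthy 2, 41 members had an unadjusted p under 0.05 in the higher direction, and still none passed the adjusted threshold. The share of all genes at that p without Healthy 2 is not given, and the 4.54% of the full fit is no background for these 41.

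Rpl15, a large-subunit protein, had 437, 424 and 273 CPM in Tumor, against 277, 208 and 218 CPM in PanIN, a log2 fold change of 0.69 ± 0.29 (unadjusted p 0.0367, adjusted p 1.0 by edgeR). Tumor 3 lay just under PanIN 1. Rps13 had 350, 340 and 236 CPM in Tumor, against 235, 155 and 187 CPM in PanIN, and 0.69 ± 0.30 (unadjusted p 0.0405), with the groups barely apart. Rpl27 had 77.9, 81.3 and 54.1 CPM in Tumor, against 55.0, 37.3 and 51.0 CPM in PanIN, and 0.57 ± 0.26 (unadjusted p 0.0484). Its look-alikes held 89.3% of the family, and with them the log2 fold change was 0.50.

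Rpl41 had 1350, 1040 and 795 CPM in Tumor, against 809, 563 and 569 CPM in PanIN. Rps19, the gene most often mutated in human Diamond-Blackfan anaemia, had 1430, 1100 and 905 CPM in Tumor, against 892, 626 and 650 CPM in PanIN, with all Tumor values above. Rpl39, at the exit tunnel of the ribosome, had 831, 717 and 460 CPM in Tumor, against 523, 345 and 425 CPM in PanIN. Their log2 fold changes were 0.71 ± 0.34, 0.66 ± 0.31 and 0.64 ± 0.32. Rpl22, whose loss arrests T cell development in mice, had 469, 452 and 320 CPM in Tumor, against 330, 280 and 340 CPM in PanIN, with Tumor 3 inside the PanIN range. In these genes Tumor 1 and Tumor 2 were high and Tumor 3 lay near PanIN 1.

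The 2 members with a lower value in Tumor than in PanIN were Rpl10 and Rps12. Rpl10 had 147, 122 and 330 CPM in Tumor, against 266, 406 and 452 CPM in PanIN, and -0.91 ± 0.38 (unadjusted p 0.0343, adjusted p 1.0 by edgeR). With look-alikes it was 0.50. Rps12 had 44.5, 38.8 and 36.4 CPM in Tumor, against 34, 36.7 and 51.2 CPM in PanIN, a log2 fold change of -0.03, and with look-alikes 0.52. With look-alikes all 76 families had a higher value in Tumor, from 0.20 to 0.72 with a median of 0.48, and 30 families had all Tumor values above PanIN, against 8.30% of all genes. None had an unadjusted p under 0.05 by edgeR.

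**Figure D4:**
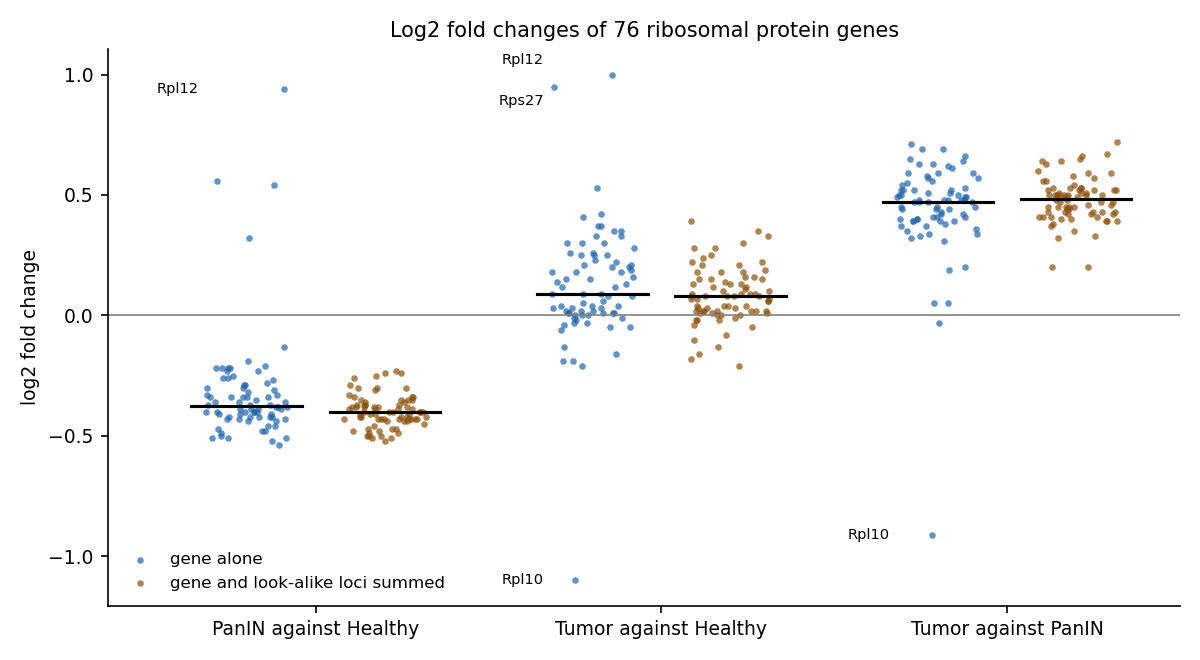
Log2 fold changes of the 76 genes in the 3 comparisons, for the gene alone (blue, left) and for the gene and its look-alike loci summed (brown, right), with 1 point per gene and a black line at the median. The medians are -0.38 and -0.40, 0.09 and 0.08, and 0.47 and 0.48, and the outlying points such as Rpl12 and Rpl10 are absent from the brown columns.

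A test of any difference among the 3 stages called 0 members by edgeR (0.0207% of all genes passed), with 2 at an unadjusted p under 0.05, against 13.4% of all genes, and a smallest adjusted p of 0.295. The stages did not form a steady series: the member median was lower in PanIN than in Healthy and higher in Tumor than in PanIN, and the first of these was -0.01 without Healthy 2.

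A set of 3 libraries, 1 per stage, shares a code at the start of its titles. Among these, 1 against 1 and so without a test, the median log2 fold change was 0.00 for PanIN against Healthy, 0.49 for Tumor against Healthy and 0.48 for Tumor against PanIN. Among the other 6 libraries it was -0.48, -0.02 and 0.44. The median for Tumor against PanIN was positive in both sets, with 75 and 72 members higher, while the contrasts with Healthy differed between them. Both sets are parts of the libraries already compared, so they add no new evidence. The members move together within a library, so these counts are not separate observations. The labels do not say what the code stands for.

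Relative to the members' own total in each library, single genes could be asked about apart from the common level. No member passed by edgeR in any comparison (0.0%, 0.00829% and 0.00414% of all genes passed in PanIN against Healthy, Tumor against Healthy and Tumor against PanIN). Within 0.25 of the common level on the log2 scale lay 72, 66 and 71 of the 76 members in the same order. The members at an unadjusted p under 0.05 were Rpl12 (1.25), Rps12 (0.98) and Rpl5 (0.77) in PanIN against Healthy, Rpl12 (0.87) and Rpl10 (-1.08) in Tumor against Healthy, and Rpl10 (-1.25) in Tumor against PanIN, where 9.96%, 14.3% and 10.3% of all genes had such a p. All are genes with at least 78.2% of their family counts at look-alikes. Annotated retained-intron transcripts, described next, held on average 37.5%, 66.4% and 61.0% of the Rpl12 counts for Healthy, PanIN and Tumor. In the same order the means were 51.0%, 75.2% and 72.7% for Rpl5 and 22.6%, 50.7% and 42.1% for Rps12. For Rpl10 they were 5.42%, 17.4% and 38.1%. Whether the coding transcripts of Rpl12, Rpl5 and Rps12 differed between stages was not tested.

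The kind of transcript that carried the counts differed between stages. Annotated retained-intron transcripts, which keep an intron and are mostly not translated, held 7.59%, 7.11% and 7.27% of member counts for Healthy, 8.76%, 8.48% and 8.08% for PanIN and 9.26%, 8.88% and 8.53% for Tumor. Every PanIN and every Tumor library lay above every Healthy library, and the means were 7.32 ± 0.244%, 8.44 ± 0.341% and 8.89 ± 0.364% in Healthy, PanIN and Tumor (SD, n = 3). An exact permutation test of 3 libraries against 3 cannot give a two-sided p below 0.1, so none is given. Other protein-coding genes showed the same order against Healthy, with 4.96%, 3.44% and 5.19% for Healthy, 5.94%, 6.67% and 7.07% for PanIN and 6.28%, 5.40% and 6.72% for Tumor.

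**Figure D5:**
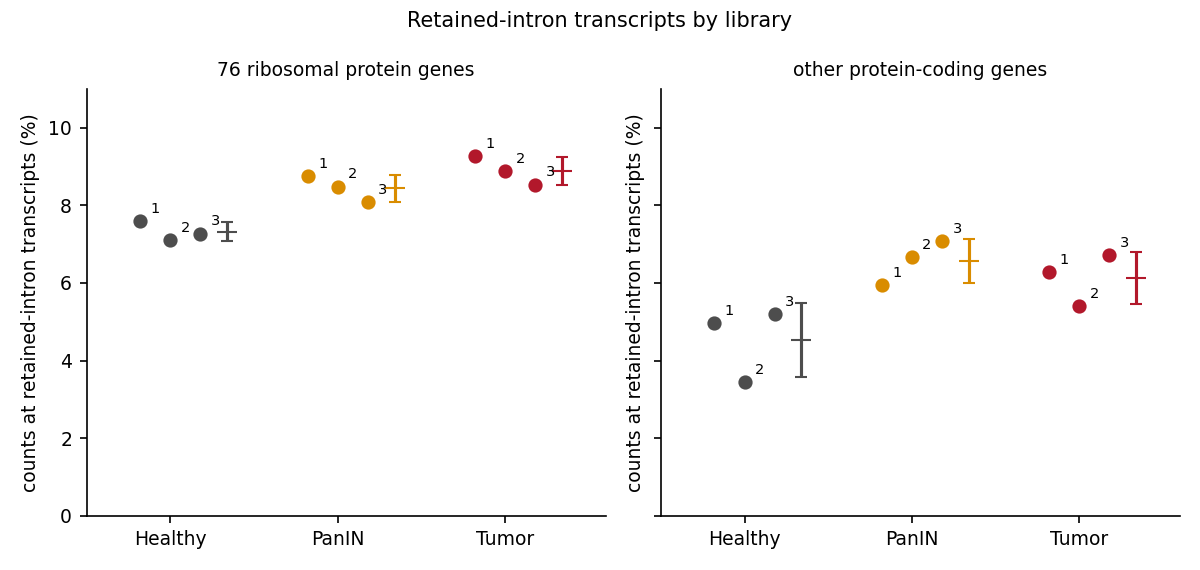
Percent of counts at annotated retained-intron transcripts for the 76 ribosomal protein genes (left) and for other protein-coding genes (right), with 1 point per library numbered within its group and the mean and SD beside them. In both panels all PanIN and Tumor libraries lie above all Healthy libraries.

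Gene by gene, 61 members had such a transcript and at least 100 counts in every library. In 30 of them (49.2%) all 3 PanIN values lay above all 3 Healthy values, against 18.6% of 6351 other genes, and in 23 (37.7%) all Tumor values did, against 14.6%. Without Healthy 2 these were 54.1% against 21.7% and 44.3% against 16.7%. All PanIN values lay below Healthy in 2 members, against 1.91% of the others, and all Tumor values in 4, against 5.73%. Between Tumor and PanIN 6 members (9.84%) had all Tumor values above, against 6.52%, and 8 had all below, against 14.2%. The other genes met the same minimum of 100 counts but were not matched to the members in depth. A percent taken from fewer counts varies more, so these shares are not like for like. The members also share libraries and are not separate observations. Rps18, a protein of the small-subunit head, had 2.14%, 2.11% and 2.47% of its counts at retained-intron transcripts in PanIN, against 0.672%, 0.279% and 0.500% in Healthy. Rpl13, of the large subunit, had 3.8%, 2.43% and 4.45% in PanIN, against 1.44%, 0.725% and 0.977% in Healthy. Rps2, which lines the messenger RNA entry channel, had 8.84%, 5.76% and 1.70% for Healthy, 21.3%, 12.5% and 8.88% for PanIN and 30.5%, 30.7% and 25.6% for Tumor, with no overlap between stages. Rps3, of the small subunit, went the other way, with 3.98%, 2.53% and 3.27% in Tumor, against 5.91%, 6.07% and 7.25% in Healthy. These genes were chosen after their values were seen. For Rps16 and Rps26 the deposited values put nearly all counts at retained-intron transcripts, from 98% to 98.9% and from 95.8% to 97.9% over the libraries, so for them the label does not describe the typical message. In Healthy 2 and Healthy 3 the members as a whole had 7.11% and 7.27%, and other protein-coding genes 3.44% and 5.19%. The part of RNA quality and of cell state in the difference between stages was not tested.

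Related genes give the surroundings. The 78 mitochondrial ribosomal protein genes had medians of -0.18 in PanIN against Healthy, 0.20 in Tumor against Healthy and 0.36 in Tumor against PanIN, where 77 of 78 had a higher value in Tumor, against 45.8% of all genes, and 11 an unadjusted p under 0.05, against 4.54%. Mrps7 had 86.1, 73.6 and 75.5 CPM in Tumor, against 57.3, 54.1 and 51.7 CPM in PanIN, without overlap, and a log2 fold change of 0.53. Values for both kinds of ribosome were thus higher in Tumor than in PanIN in nearly every gene, without passing the test. Of 12 elongation factor genes, whose products carry the ribosome along the message, 10 had a higher value in Tumor than in PanIN, with a median of 0.31, and of 37 initiation factor genes 29 did, with a median of 0.21, where 45.8% of all genes did.

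Genes for making ribosomes stood near all genes. Of 60 ribosome biogenesis factors 23 had a higher and 37 a lower value in Tumor than in PanIN, with a median of -0.13, where 45.8% of all genes had a higher value and the median was -0.05. In Tumor against Healthy 19 were higher and 41 lower with a median of -0.14, where 43.5% of all genes were higher and the median was -0.11. Among the lower ones was Gnl3l, a nucleolar GTPase, with 33.5, 41.4 and 31.9 CPM in Tumor, against 55.4, 69.1 and 69.3 CPM in Healthy, and -0.86 (unadjusted p 0.00104). The 31 genes of the mTORC1 and LARP1 pathway had medians of 0.01, 0.03 and 0.04 in PanIN against Healthy, Tumor against Healthy and Tumor against PanIN. In it the S6 kinase gene Rps6kb2 had 24.8, 21.0 and 28.5 CPM in Tumor, against 15, 10.7 and 12.7 CPM in Healthy, without overlap, and 0.95 (unadjusted p 0.00214).

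Several small nucleolar RNA host genes are known to begin with a pyrimidine tract like the ribosomal protein genes and to be degraded when translated. All 12 tested had a higher value in Tumor than in Healthy, with a median of 0.63, against 43.5% of all genes. In PanIN against Healthy 9 were higher and 3 lower, with a median of 0.31, where 57.5% of all genes were lower. Snhg1 had 62.3, 47.7 and 53.8 CPM in Tumor, against 35, 30.0 and 19.7 CPM in Healthy (0.95, unadjusted p 0.00202). Snhg5 had 19.4, 14.2 and 17.2 CPM in Tumor, against 10.2, 7.19 and 8.13 CPM in Healthy (0.99, unadjusted p 0.00349). No gene of these related lists passed the adjusted threshold by edgeR in any comparison.

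Among ribosomal protein genes outside the symbol rule, Fau, a fusion of a ubiquitin-like and a ribosomal protein, had 530, 445 and 366 CPM in Tumor, against 363, 274 and 298 CPM in PanIN, without overlap, and a log2 fold change of 0.52. Rps27l, the paralog of Rps27 and a p53 target, departed from the members in Tumor against Healthy. It had 146, 117 and 103 CPM in Tumor, against 54.3, 70.4 and 48.0 CPM in Healthy, a log2 fold change of 1.08 (unadjusted p 0.000975, adjusted p 0.168 by edgeR), and 0.98 against PanIN. Its Tumor values lay above both other groups.

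Markers of other cells and states also differed between libraries, some with the stages and some in single libraries. All 12 mature dendritic cell markers had a higher value in each of the 3 comparisons, with medians of 0.64, 1.41 and 0.76, where the medians over all genes were -0.10, -0.11 and -0.05, and their summed level ran from 1000 to 9130 CPM in Healthy, 4660 to 10700 in PanIN and 9650 to 17700 in Tumor. The library order differed from that of the ribosomal proteins: Healthy 2 had the highest ribosomal protein share with the lowest sum of mature markers, and Tumor 1 had the second highest share with the highest sum. B cell markers summed to 339 CPM in PanIN 2, against 47.9 to 96.9 CPM in the other 8 libraries, and neutrophil markers to 46.6 and 33.7 CPM in PanIN 2 and PanIN 3, against at most 15.1 CPM elsewhere, in the 2 libraries with the lowest ribosomal protein share. T cell, erythroid and epithelial markers were highest in Tumor 1, at 633, 235 and 86.5 CPM. Of 7 plasma cell markers, all had a higher value in Tumor than in Healthy (median 1.84) and 6 in Tumor than in PanIN (median 0.72), against 43.5% and 45.8% of all genes. Their sum was highest in Tumor 1 and Tumor 2, at 340 and 222 CPM, against 91.9 to 202 CPM in the other 7 libraries. The part of these cells and states in the ribosomal protein values was not tested.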

How the data were processed

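RNA-seq of 9 libraries of cDC1 was used, 3 per stage. Per transcript, the authors deposited an estimated count, which need not be whole and is not normalized, and a TPM value, scaled to the same total in every library. The submitters' processing notes name Salmon and mm10, but the file names contain the word sailfish; the version and the use of strand were not given in the sources used here. Quantification splits reads between near-identical transcripts by a model, so counts of a gene and its copies are uncertain.

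Of 136288 transcripts 136176 were matched to GENCODE M21 (GRCm38) by identifier, holding at least 99.963% of each library's counts. Estimated counts were summed to genes and rounded. Genes passing filterByExpr (minimum count 10, minimum total 15) numbered 24133. All 76 members passed. One edgeR 4.0.16 quasi-likelihood fit (R 4.3.3) over 9 libraries had TMM factors from 0.83 to 1.19, group as the only term, and Benjamini-Hochberg adjustment over all genes, with a threshold of 0.05. CPM use TMM factors. The fit relative to the members used their summed counts as library size. Alternatives used DESeq2 1.42.0 and limma 3.58.1. Tables and figures used Python 3.11.15, pandas 2.3.3 and matplotlib 3.10.9.

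The members, lists and alternatives were chosen with earlier results of these data known, and the look-alike loci after seeing the data. Named genes were fixed members, the 5 highest and 5 lowest in TPM, the 5 with the largest SD, the 5 smallest p per direction and comparison, and up to 4 per list. Some genes covered by this rule are not reported. In simulated counts for Tumor against Healthy over 24133 genes, the test called 8.96% of genes changed 2-fold, 61.2% of those changed 4-fold and 92.4% of those changed 8-fold, so a difference not called here may still exist.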

Additional observations from a re-analysis of the deposited data

How the results depend on the processing

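No paired analysis was possible: 1 library per stage shares a title code, and each of the other 6 has a code of its own. The labels carry no replicate numbers, so the numbers 1 to 3 used here are not theirs. A term for the shared code, against the other 6 together, cannot adjust for the single codes. It left 0 members called, with medians of -0.39 in PanIN against Healthy, 0.08 in Tumor against Healthy and 0.47 in Tumor against PanIN. In Tumor against PanIN no alternative called a member, and the median stayed above 0, from 0.37 to 0.60 when a library was left out. In PanIN against Healthy, limma-voom with sample weights called 3 members, and the median was 0.02 on log2(TPM + 1), 0.02 on log2(TPM + 0.1) and from -0.55 to -0.01 when a library was left out, reaching -0.01 without Healthy 2; without Healthy 2 and Healthy 3 it was -0.14. No leave-one-out fit there called a member. With sample weights, limma-voom drew its Healthy values mostly from Healthy 1 (weight 4.32), so its calls against Healthy rest largely on that library. In Tumor against Healthy, DESeq2, the fit with no filter and limma-voom with sample weights called 1 member each, leaving out a library gave 0 to 1, and the median ran from -0.09 to 0.46, reaching 0.46 without Healthy 2. The test of any difference called 0 to 1 members when a library was left out. Relative to the members' total none was called under any alternative run. The related lists other than the mitochondrial ribosomal proteins, 167 genes in all, gave 11 calls in PanIN against Healthy by limma-voom with sample weights. In Tumor against Healthy they gave 8 by DESeq2, 10 by limma-voom with sample weights, 3 with no filter and 0 to 8 when a library was left out. The share of all genes called in these fits is not given, so neither these counts nor the member calls have a background. Rpl12 in PanIN against Healthy turned to -0.43 with look-alike loci. Rpl10 turned to 0.13 in Tumor against Healthy and to 0.50 in Tumor against PanIN, both with named pseudogenes and with look-alike loci. For the other moves the cause was not tested. Differences in the summed share moved by less than 0.89 percentage points, the SD of replicates, when one choice was changed at a time. With 2 changed together, chosen after seeing the data, percent of TPM without Healthy 2, they were 1.64 for PanIN minus Healthy, opposite in sign, and 2.77 for Tumor minus Healthy. As percent of TPM with look-alike loci, Tumor minus Healthy was 1.97 and Tumor minus PanIN 2.76. Depth limits few members, since all but Rps27, Rpl12, Rpl5 and Rps12 exceeded 100 TPM; the common coefficient of variation between libraries was 56.5%.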
